A study of Mus musculus with 5 samples.

Results

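A set of 4670 chromatin regions was open in mouse hindlimb muscle before birth and had no peak there after birth. They were picked from the 91265 ATAC-seq peaks called in wild-type (WT) muscle at E18.5 (E, embryonic day), of which they made up 5.12%. A peak was taken when it overlapped, by at least 1 base, a peak of WT muscle at E14.5 and a peak of Cacna1s-/- muscle at E18.5, and overlapped no peak of WT muscle at postnatal day 5 (P5) or in the adult. These prenatal-only peaks were therefore chosen by the peak calls themselves, and their presence before birth and absence afterwards is the definition of the set and not a result. Another 31606 of the E18.5 peaks were called in all 5 libraries, 4428 were shared with E14.5, Cacna1s-/- and P5 but not the adult, and 1701 with E14.5, Cacna1s-/- and the adult but not P5.

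The study profiled RNA and open chromatin in the same nuclei, from hindlimb muscle cleared of skin and bone, across development and without the voltage sensor encoded by Cacna1s. All mice were of the C57bl6n strain: WT at E14.5 (56 hindlimbs pooled), E18.5 (14), P5 (8) and adult (4), and Cacna1s-/- at E18.5 (26, called KO here). Each group was 1 library of pooled limbs, so no difference between groups has a replicate check and no p-value is given. According to the study's methods, nuclei were sorted by the myonuclear protein PCM1, and the positive and negative fractions were mixed in equal volumes, so the proportion of myonuclei in a library is partly set by the sort. Intervals are exact 95% intervals, computed on counts divided by 2 for ATAC because 83.1% to 84.5% of the nonzero peak counts were even, and they cover counting error only.

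The libraries held 21394846 to 49913899 RNA UMIs and 23592784 to 48510096 ATAC counts in peaks over all barcodes, and 3228 to 5108 nuclei after filtering. Cacna1s RNA in myonuclei stood at 189 CPM (counts scaled to a common library total) in WT E18.5 and at 0.731 CPM (8 UMIs) in the KO, as the genotype label says. Nuclei with at least 1.5% of their UMIs in Ttn, Neb, Trdn and Ryr1 were called myonuclei (1809, 1563, 1764 and 4429 in the WT libraries by age, 981 in the KO), and the remaining nuclei are called others. The P5 library, with 27092329 ATAC counts and 67013 peaks, was deeper than the E14.5 library (23592784 counts, 65624 peaks) and the KO library (23714252 counts, 61874 peaks) that had to carry a call, and shallower than WT E18.5 (44317624 counts). The libraries shared 17 to 47 cell barcodes per pair. Since peaks were called in each library on its own, the prenatal-only peaks have ATAC counts in the 3 prenatal libraries alone, and a missing call after birth does not mean that no read fell there.

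During fetal growth, myoblasts exit the cell cycle and fuse into multinucleated fibres, which first build contractile filaments from developmental isoforms and receive their motor axons. Around and after birth these isoforms are replaced by adult ones. Accessible stretches of chromatin away from gene starts often act as enhancers. In muscle many of them carry E-boxes, the short motif CANNTG bound by the MyoD family, and TEAD factors bind the motif GGAATG at muscle genes.

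The central 300 bases of 8 prenatal-only peaks are shown because they lie next to genes on which the results turn: developmental sarcomere genes, the fusion genes Mymk and Mymx, the muscle cadherin Cdh15, the fetal acetylcholine receptor subunit Chrng and the factors Klf5 and Myog. They also differ in how many copies they hold of CAGCTG, the E-box kind compared at the end of the report. Sequences are from the GRCm38 genome, plus strand, and capitals mark CANNTG and GGAATG on either strand (GGAATG reads CATTCC on the minus strand).
Tnnt2 chr1:135834244-135834543: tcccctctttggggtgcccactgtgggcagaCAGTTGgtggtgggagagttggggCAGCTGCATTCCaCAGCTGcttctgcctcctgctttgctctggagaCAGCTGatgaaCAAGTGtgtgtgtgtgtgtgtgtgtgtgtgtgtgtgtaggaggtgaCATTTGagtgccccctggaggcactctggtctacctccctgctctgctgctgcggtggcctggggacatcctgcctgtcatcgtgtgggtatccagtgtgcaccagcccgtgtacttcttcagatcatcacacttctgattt
Cdh15 chr8:122850716-122851015: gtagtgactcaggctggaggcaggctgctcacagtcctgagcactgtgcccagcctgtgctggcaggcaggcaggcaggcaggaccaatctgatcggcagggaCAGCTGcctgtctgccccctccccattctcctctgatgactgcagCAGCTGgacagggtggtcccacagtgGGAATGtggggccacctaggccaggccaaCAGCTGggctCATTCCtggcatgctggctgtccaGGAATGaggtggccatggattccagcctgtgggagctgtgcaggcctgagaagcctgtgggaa
Mymx chr17:45616121-45616420: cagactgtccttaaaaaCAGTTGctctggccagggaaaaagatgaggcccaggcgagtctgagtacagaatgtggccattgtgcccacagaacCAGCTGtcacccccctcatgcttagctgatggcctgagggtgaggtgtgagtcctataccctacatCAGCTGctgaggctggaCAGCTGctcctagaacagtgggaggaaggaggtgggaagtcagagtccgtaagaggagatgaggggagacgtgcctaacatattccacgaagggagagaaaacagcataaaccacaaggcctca
Klf5 chr14:99326043-99326342: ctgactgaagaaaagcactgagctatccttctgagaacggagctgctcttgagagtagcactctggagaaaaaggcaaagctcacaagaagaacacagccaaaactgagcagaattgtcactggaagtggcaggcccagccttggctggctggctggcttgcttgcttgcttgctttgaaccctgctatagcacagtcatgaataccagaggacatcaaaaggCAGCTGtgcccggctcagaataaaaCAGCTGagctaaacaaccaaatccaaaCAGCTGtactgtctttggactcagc
Myog chr1:134277053-134277352: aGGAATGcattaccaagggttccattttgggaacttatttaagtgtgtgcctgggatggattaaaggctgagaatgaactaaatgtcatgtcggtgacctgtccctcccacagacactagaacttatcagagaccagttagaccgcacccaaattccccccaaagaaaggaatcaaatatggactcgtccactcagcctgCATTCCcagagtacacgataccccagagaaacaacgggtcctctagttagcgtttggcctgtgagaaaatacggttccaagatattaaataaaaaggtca
Mymk chr2:27059108-27059407: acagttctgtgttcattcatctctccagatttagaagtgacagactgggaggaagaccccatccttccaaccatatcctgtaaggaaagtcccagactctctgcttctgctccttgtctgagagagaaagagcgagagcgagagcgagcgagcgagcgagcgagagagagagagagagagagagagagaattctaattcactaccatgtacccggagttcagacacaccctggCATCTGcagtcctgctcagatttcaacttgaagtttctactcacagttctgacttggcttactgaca
Chrng chr1:87200843-87201142: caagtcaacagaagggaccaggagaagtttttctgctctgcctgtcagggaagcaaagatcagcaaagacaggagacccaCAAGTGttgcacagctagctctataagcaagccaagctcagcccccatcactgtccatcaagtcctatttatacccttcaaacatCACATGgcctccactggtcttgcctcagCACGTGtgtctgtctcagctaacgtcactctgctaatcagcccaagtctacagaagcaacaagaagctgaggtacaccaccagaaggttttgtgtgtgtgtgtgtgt
Myh3 chr11:67078007-67078306: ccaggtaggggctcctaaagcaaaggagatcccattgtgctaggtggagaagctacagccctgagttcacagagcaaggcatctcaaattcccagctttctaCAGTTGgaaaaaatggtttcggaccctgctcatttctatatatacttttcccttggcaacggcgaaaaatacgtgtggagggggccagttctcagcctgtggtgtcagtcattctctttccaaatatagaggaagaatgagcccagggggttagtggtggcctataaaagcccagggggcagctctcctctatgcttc

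The windows near Tnnt2, Cdh15, Mymx and Klf5 each held 3 copies of CAGCTG, the E-box with a GC centre, and Cdh15 had 3 TEAD motifs as well. The windows near Myog, Mymk, Chrng and Myh3 held none of that E-box, and the Myog window had no CANNTG at all but 2 TEAD motifs. A motif match describes these letters and is not a measured binding site.

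Accessibility of the prenatal-only peaks leaned towards myonuclei. At E18.5, 2172 of the 4669 with enough counts (46.5%) had at least 2 times more CPM in myonuclei than in others, against 18.1% of all E18.5 peaks. The opposite pattern, at least 2 times more in others, was found for 515 of them (11%) against 23.4% of all peaks. Their median log2 ratio of myonuclei over others was 0.88, beside -0.12 for all E18.5 peaks and -0.01 for peaks called in all 5 libraries. In the other prenatal libraries, 46.2% at E14.5 and 36.6% in the KO were at least 2 times higher in myonuclei, beside 17.3% and 17.1% of all E18.5 peaks that were called there. With myonuclei defined from 3% of UMIs the proportion at E18.5 was 30.5% and the median 0.52 (15.2% and -0.15 for all E18.5 peaks).

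Muscle stem cells and myoblasts shared this accessibility. Prenatal-only peaks, leaving out a ribosomal repeat described later, took 5.70% of ATAC counts in myonuclei at E14.5, 3.19% at E18.5 and 4.51% in the KO. In nuclei named by stem cell and myoblast markers (204, 183 and 322 nuclei) the shares were 5.28%, 4.52% and 5.00%. Mesenchymal nuclei stood lower, at 2.86%, 1.72% and 2.71%, and endothelial nuclei at 2.66%, 1.54% and 2.47%. At E18.5 the share was therefore larger in the stem cell and myoblast nuclei than in myonuclei, whereas at E14.5 myonuclei were higher. Peaks also called at P5 but not in the adult took 4.93%, 3.56% and 4.49% in myonuclei. In stem cell and myoblast nuclei they took 5.35%, 4.77% and 5.42%, so a high share there was not particular to the prenatal-only peaks. The denominator of a share is all ATAC counts in the peaks of that library.

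At E18.5 and in the KO, the share was lower again where the sarcomere markers were highest. At E18.5 it was 1.76% in nuclei with under 0.5% marker UMIs, 3.35% between 0.5% and 1.5%, 3.39% between 1.5% and 3%, 3.23% between 3% and 6% and 2.41% (2.38% to 2.44%) between 6% and 10%. The KO gave 2.79%, 4.37%, 4.63%, 4.40% and 3.92% over the same ranges, with 15 nuclei between 6% and 10%. At E14.5 it was 5.72% between 1.5% and 3%, 5.65% between 3% and 6% and 6.07% in the 4 nuclei between 6% and 10%. The few nuclei above 10% gave 4.79% (2.81% to 7.56%, 1 nucleus) at E14.5, 2.49% (2 nuclei) at E18.5 and 2.86% (2.22% to 3.62%, 7 nuclei) in the KO. The 8 stem cell and myoblast markers were summed at 980 CPM in the E18.5 nuclei between 0.5% and 1.5%, 342 CPM between 1.5% and 3% and 85.0 CPM between 6% and 10%. Mesenchymal marker RNA also differed along this axis, with 4537, 3797, 701 and 390 CPM at E18.5 and 2250, 1122, 259 and 196 CPM in the KO over the 4 ranges from 0.5% to 10%. The part of either marker list in the accessibility was not tested.

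**Figure D1:**
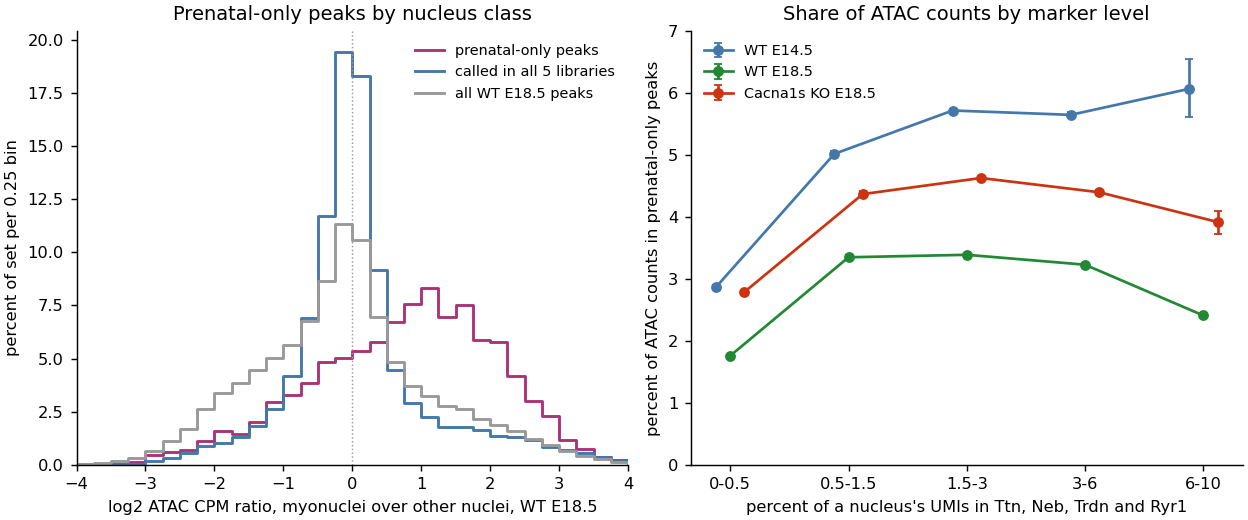
Left, histogram of the log2 ATAC CPM ratio of myonuclei over other nuclei at WT E18.5 (x axis) as percent of each set per bin (y axis), for prenatal-only peaks, peaks called in all 5 libraries and all E18.5 peaks. Right, percent of ATAC counts in prenatal-only peaks (y axis) by the percent of a nucleus's UMIs in Ttn, Neb, Trdn and Ryr1 (x axis) in the 3 prenatal libraries, with 95% counting intervals and without the 10 nuclei above 10%. The prenatal-only curve peaks on the myonuclear side, with a median of 0.88, and the E18.5 share is 3.39% between 1.5% and 3% of marker UMIs and 2.41% between 6% and 10%.

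Most prenatal-only peaks lay away from gene starts. In all, 438 (9.38%) were centred within 1000 bases of a transcription start, beside 21.8% of all E18.5 peaks and 44.8% of peaks called in all 5 libraries. Introns held 2079 (44.5%), intergenic sequence 1951 (41.8%) and exons 202 (4.33%), beside 38.5%, 35.9% and 3.82% of all E18.5 peaks. The median distance to the nearest start was 17065 bases against 10761 bases for all E18.5 peaks, and 1123 (24.0%) were over 50 kb away against 17.2%. Those higher in myonuclei included 124 promoters of 2172, beside 1614 of the 16455 E18.5 peaks higher in myonuclei. Placing genes by the interval of their row in the deposited table raised the promoter proportion to 15.6% (26.2% for all E18.5 peaks).

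The peaks were of moderate height, with a median of 162 counts at E18.5, against 196 for all E18.5 peaks and 479 for those of all 5 libraries, at a median width of 877, 880 and 887 bases. The nearest postnatal peak was a median 5244 bases away, and 787 (16.9%) had one within 1000 bases. At the edge of the rule, 24 peaks were kept with a smaller overlap of at most 50 bases (median 99.5 counts) and 35 were left out by at most 50 bases of overlap with a P5 or adult peak (median 163 counts). A minimum of 200 counts would have kept 1551 of the 4670.

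In the prenatal libraries the median levels followed the order E14.5, KO, WT E18.5. The rule used the calls in these libraries, so the levels are a description. The E14.5 and KO libraries had fewer ATAC counts (23592784 and 23714252) than WT E18.5 (44317624). Requiring a call in them can favour weak regions that stand higher there. Its part in this order, and in the levels of single peaks given below, was not tested. In myonuclei the median CPM was 10.2 at E14.5, 5.66 at WT E18.5 and 7.71 in the KO, and in others 5.96, 3.26 and 5.25. Peaks of all 5 libraries stood at 14.3, 13.7 and 14.7 in myonuclei, and peaks also called at P5 but not in the adult at 7.6, 5.87 and 6.49. The order E14.5 over KO over WT E18.5 held in 47.6% of prenatal-only peaks, 29.2% of those also called at P5 and 17.5% of those of all 5 libraries.

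Counted singly in myonuclei, 1705 of 4644 prenatal-only peaks (36.7%) were at least 2 times higher at E14.5 than at E18.5, with a background of 11.1%, and 121 (2.61%) were at least 2 times higher at E18.5, with a background of 5.19%. The KO was at least 2 times higher than WT E18.5 for 692 of 4623 (15.0%, background 5.41%) and at least 2 times lower for 119 (2.57%, background 3.98%). Because both contrasts entered the rule, nothing is read from these counts. The median log2 KO over WT ratio was 0.45 in myonuclei and 0.72 in others. Among peaks at least 2 times higher in myonuclei it was 0.50 in myonuclei for the prenatal-only peaks, 0.45 for those also called at P5 but not in the adult and 0.30 for those of all 5 libraries, and in others 0.90, 0.83 and 0.74. The KO myonuclei had 390 CPM of stem cell and myoblast marker RNA against 239 in WT E18.5 and 362 at E14.5, and its part in the ratio was not tested. In summed counts, fewer nuclei of a kind and less signal per nucleus cannot be told apart.

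**Figure D2:**
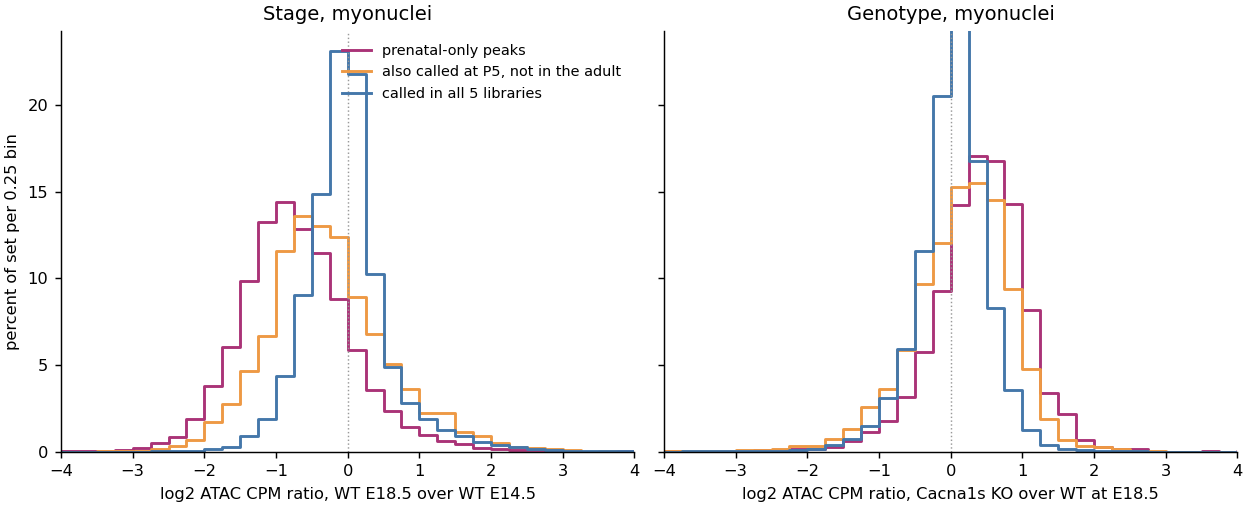
Histograms of log2 ATAC CPM ratios in myonuclei (x axes), as percent of each set per bin (y axis), for WT E18.5 over WT E14.5 on the left and Cacna1s KO over WT at E18.5 on the right. Prenatal-only peaks are shifted to lower E18.5 values, with a median of -0.76, and to higher KO values, with a median of 0.45, beside -0.05 and 0.06 for peaks called in all 5 libraries.

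Sarcomere genes of the developing fibre had 9 prenatal-only peaks among the 55 E18.5 peaks nearest to the 11 genes listed (16.4%, beside 5.12% of all peaks), at Myh3, Tnnt2, Tnni1 (2 peaks), Myl4, Tnnc1, Myl1 (2 peaks) and Actn2. All 9 were at least 2 times higher in myonuclei. Of the 16455 E18.5 peaks at least 2 times higher in myonuclei, 2172 were prenatal-only, a larger share than over all peaks. The gene lists were not compared within that class, so the lean towards myonuclei is not separated from their shares. This list shares Myh3, Myh8 and Tnnt2 with genes the study chose on these samples. All lists were chosen with earlier results of these data known, so their shares are not independent evidence. Myh3, the embryonic myosin heavy chain, had its promoter in the set (chr11:67077784-67078529, 143 bases upstream of the start). Its ATAC level in myonuclei was 37.5 CPM at E14.5, 28.3 CPM at WT E18.5 and 33.7 CPM in the KO, and in others 5.96, 2.44 and 3.54 CPM. At E18.5 the level in others was 0.0862 times (95% interval 0.0540 to 0.128) that in myonuclei, an 11.6-fold difference and the widest of the 9.

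Tnni1, slow skeletal troponin I, had a promoter peak 51 bases upstream (chr1:135798955-135799747) and an intronic peak 1034 bases downstream (chr1:135800414-135801319). The promoter peak read 27.7, 19.8 and 23.8 CPM in myonuclei at E14.5, WT E18.5 and KO, and the intronic peak 76.2, 32.8 and 57.7 CPM. The intronic peak was thus 2.32 times (1.98 to 2.74) higher at E14.5 than at E18.5, whereas the promoter peak was 1.40 times (1.11 to 1.78) higher. Myl4, a light chain of embryonic muscle and atrium, had a promoter peak (chr11:104576511-104577382) at 72.9, 33.5 and 59.8 CPM. Its KO level was 1.78 times (1.45 to 2.17) that of WT E18.5.

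Upstream of Tnnt2, cardiac troponin T, which developing skeletal muscle also uses, a peak 1960 bases away (chr1:135833937-135834851) stood at 27.5 CPM at E14.5, 14.9 CPM at WT E18.5 and 29.3 CPM in the KO. The KO value was 1.97 times (1.47 to 2.66) the WT value and close to that of E14.5. Tnnc1, slow and cardiac troponin C, had an intronic peak (chr14:31209013-31209832) at 67.1, 20.7 and 29.4 CPM, which was 3.25 times (2.67 to 3.94) higher at E14.5. The peak 16366 bases downstream of the start of Myl1, a fast light chain (chr1:66917883-66918780), did not share the order, at 21.8, 24.8 and 41.0 CPM.

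Fusion and myogenic genes contributed 12 peaks of 128 (9.38%), at 9 of 16 genes. This list shares Mymk, Mymx and Myog with genes the study chose on these samples, and is not independent evidence. Mymk encodes myomaker, a membrane protein needed for myoblast fusion, and its peak 8610 bases downstream (chr2:27058836-27059680) read 30.6, 24.2 and 43.5 CPM in myonuclei and 10.9, 5.97 and 16.5 CPM in others. Mymx encodes myomixer, its partner in fusion, and the peak 14169 bases upstream (chr17:45615782-45616759) read 25.5, 11.3 and 25.2 CPM in myonuclei, with the KO 2.24 times (1.62 to 3.13) WT E18.5. Both fusion genes thus had a peak that was higher in the KO than in WT E18.5. The median of the whole set was higher in the KO too (log2 0.45), with a KO call required by the rule.

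Cdh15, M-cadherin of muscle stem cells and fetal fibres, had a pair of intronic peaks. The one 2900 bases from the start (chr8:122850421-122851311) stood at 61.9, 35.6 and 49.3 CPM in myonuclei and at 21.9, 12.3 and 32.6 CPM in others. It was among the 12 prenatal-only peaks with the most myonuclear counts. A peak 12054 bases upstream of Myod1, the myogenic determination factor (chr7:46363933-46364906), read 23.4, 10.1 and 13.0 CPM in myonuclei and was 7.33 times (4.17 to 13.7) higher there than in others at E18.5. The peak 444 bases upstream of Jam3, a junctional adhesion molecule (chr9:27148749-27149608), was 4.24 times (3.17 to 5.80) higher at E14.5 than at E18.5, with 35, 8.26 and 15.8 CPM.

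At neuromuscular junction genes, 11 of 110 E18.5 peaks (10.0%) were prenatal-only. The junction list shares Chrng, Col25a1 and Etv5 with the study's choices on these samples, so some peaks count in more than 1 list. It is not independent evidence. Chrng, the fetal gamma subunit of the acetylcholine receptor, had a peak 3664 bases upstream (chr1:87200576-87201409) at 16 CPM at E14.5, 14 CPM at WT E18.5 and 30.0 CPM in the KO. The KO level was 2.14 times (1.61 to 2.91) that of WT E18.5, while both WT stages were alike within their interval (1.14, 0.849 to 1.54). Col25a1, a muscle collagen needed for motor axons to enter, had 4 intronic peaks at 3.62 to 8.74 CPM in WT E18.5 myonuclei, and the one at chr3:130537483-130538303 read 10.5, 4.37 and 13.1 CPM, a KO level 3.01 times (1.86 to 5.04) the WT level.

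Dok7, an activator of the receptor kinase MuSK, had a peak 3833 bases upstream (chr5:35070670-35071580) at 17, 18.6 and 26.1 CPM. One of 3 peaks near Col13a1, a synaptic collagen, was the exception in class: it was 2.38 times (1.46 to 3.84) higher in others than in myonuclei (chr10:62044221-62045093). The list of developmental genes that the study drew from these same samples had 15 of 70 peaks in the set (21.4%), including 4 near Fstl4 and 2 near Tmem108, and is not independent evidence of a prenatal pattern. The intronic Fstl4 peak at chr11:52775379-52776305 and the intronic Tmem108 peak at chr9:103748991-103749853 differed from Chrng and Col25a1 in the KO: they read 35.3, 9.42 and 8.94 CPM and 19.7, 6.14 and 3.68 CPM at E14.5, WT E18.5 and KO, so that the KO was not above WT E18.5. Their RNA in KO myonuclei was higher, with 29.3 against 9.27 CPM for Fstl4 (3.17 times, 2.55 to 3.95) and 128 against 96.3 CPM for Tmem108 (1.33 times, 1.23 to 1.44).

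Among transcription factors, Myog and Tead4 and Klf5 had 6 prenatal-only peaks of 24 (25%), a list that the study also chose on these samples and that is not independent evidence. Klf5, a zinc finger factor, had peaks 2835 bases upstream and 27039 bases downstream of its start, the latter (chr14:99325744-99326641) at 15.8, 12.4 and 16.5 CPM in myonuclei. The Tead4 peak in an intron 16110 bases from the start (chr6:128259013-128259921) stood at 25.2, 19.3 and 29.6 CPM. Myogenin, a factor of terminal differentiation, had a peak 12786 bases upstream of Myog (chr1:134276813-134277592) at 19.4, 15.2 and 27.2 CPM, with the KO 1.79 times (1.33 to 2.43) WT E18.5. Each of these 3 peaks, of the 6 in the list, was higher in the KO than in WT E18.5. The interval of the KO ratio at Klf5 (0.922 to 1.93) included 1. A KO call was part of the rule, and the median log2 KO over WT ratio of the whole set was 0.45. Nothing particular to these factors is read from their KO levels.

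Elk3, Etv5 and Plag1, which with Sox4 form the study's embryonic factor list, had 4 peaks of 27 (14.8%, again a list chosen on these samples and not independent evidence). All 4 were at least 2 times higher in myonuclei. The adult factor list, with Thrb, Esr1, Nr4a1, Maf and Tef, had 0 of 39, and it is a list chosen on these samples and not independent evidence. A list of neonatal factors, the Nfi family and Prrx1, had 1 of 69 (1.45%), at Nfib. The study named these factors from these same samples, so this list is not independent evidence either. Of 14 peaks near mature muscle genes that the study chose on these samples, not independent evidence either, 1 was prenatal-only, in an intron of Atp2a1, the fast calcium pump (chr7:126460881-126461411), at 15.7, 15.1 and 24.5 CPM.

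Imprinted growth genes had 14 of 105 peaks in the set (13.3%). Rian, a noncoding RNA of the Dlk1 to Meg3 cluster, had an intronic peak (chr12:109604883-109605757) that was among the highest in myonuclei and did not drop towards E18.5, with 27.5, 34.7 and 35.4 CPM. The peak 3323 bases upstream of Igf2, an insulin-like growth factor (chr7:142669680-142670597), read 29.8, 17.1 and 23.8 CPM. A peak 30620 bases from Cdkn1c, a cell cycle inhibitor (chr7:143428299-143429082), went the other way from most, at 5.91 CPM at E14.5, 15.6 CPM at WT E18.5 and 18.9 CPM in the KO.

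Gnas, the stimulatory G protein subunit, had 4 peaks, the 2 highest lying 11053 and 10095 bases upstream and at 47.8, 16.5 and 28.0 CPM and 32.9, 21.7 and 32.3 CPM in myonuclei. The Gnas locus has several overlapping transcripts, so the nearest start does not say which of them the regions belong to. In the growth and RNA binding list, 4 of 45 peaks (8.89%) were prenatal-only. The one in an intron of Igf2bp3, which binds Igf2 mRNA (chr6:49140816-49141739), was at 22.7 CPM at E14.5, 6.14 CPM at WT E18.5 and 18.6 CPM in the KO, 3.02 times (1.99 to 4.60) the WT level.

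The remaining lists lay closer to the 5.12% of all peaks or below it: tendon 3 of 37, cartilage and bone 6 of 76, cell cycle 5 of 64, axon guidance and synaptic genes 17 of 238, matrix and growth factors 8 of 174, Notch and Wnt 4 of 102, limb patterning 6 of 166 and mesenchyme 3 of 211. Within axon guidance, Dscaml1, a neuronal adhesion molecule, had an intronic peak (chr9:45645190-45646012) at 18.2, 2.39 and 7.71 CPM in myonuclei, 7.62 times (4.45 to 13.0) higher at E14.5 than at E18.5.

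**Figure D3:**
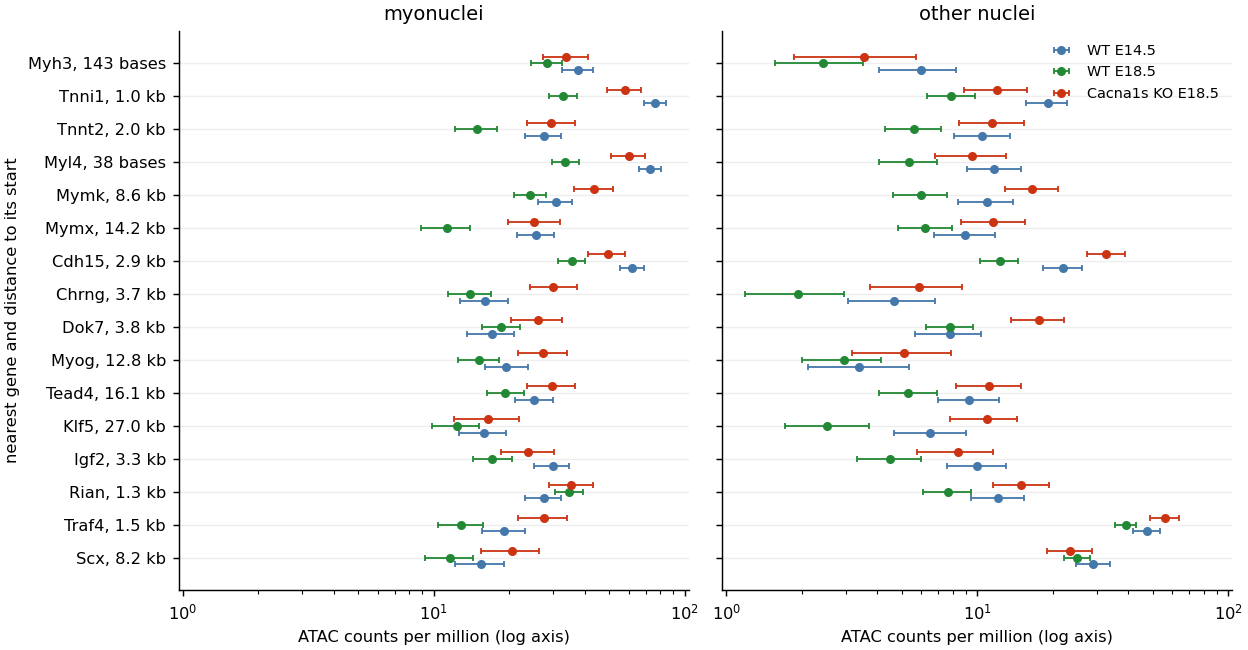
ATAC counts in CPM on a log axis (x axis) of 16 prenatal-only peaks, named by their nearest gene and the distance to its start (y axis), in myonuclei on the left and other nuclei on the right, with 95% counting intervals. In myonuclei most WT E18.5 points lie left of the E14.5 and KO points, as at Mymx (11.3 against 25.5 and 25.2 CPM), while the Traf4 and Scx regions are higher in other nuclei.

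The 515 peaks higher in others were fewer and farther from gene starts than the 2172 higher in myonuclei. Their median distance was 28616 against 17383 bases, and 52.8% against 40.2% were intergenic. The place of all E18.5 peaks higher in others was not compared. The adult library held 679 others with 6619110 ATAC counts, against 2698 with 21759842 at WT E18.5. Fewer reads thus stood behind a missing adult call in this class. An intronic peak of Traf4, a signalling adaptor (chr11:78163520-78164452), read 47.3, 39.1 and 55.9 CPM in others and 19.1, 12.9 and 27.5 CPM in myonuclei. The peak 8229 bases from Scx, the tendon factor (chr15:76465312-76466186), read 29, 25 and 23.4 CPM in others and 15.4, 11.6 and 20.5 CPM in myonuclei. At the promoter of Uba7, a ubiquitin-like activating enzyme (chr9:107982673-107983210), the level in others was 4.78 times (3.50 to 6.70) that in myonuclei at E18.5. Their median log2 E18.5 over E14.5 ratio in others was -0.37, beside -0.85 in myonuclei for the 2172 peaks higher there.

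Some regions stood apart for their sequence. The highest of all, chr17:39845710-39846517, lies at a ribosomal RNA repeat near Gm42418 and had 8515 counts in WT E18.5 myonuclei and 28354 in others, 1.79% and 6.37% of all counts in the set. Its KO level was 2083 CPM in myonuclei and 2772 CPM in others against 581 and 1303 CPM in WT E18.5. A pair on chromosome Y (chrY:90737446-90738208 and chrY:90803342-90804096) had KO levels of 13.3 and 15.4 CPM against 0.683 CPM each in WT E18.5 myonuclei, 19.5 and 22.6 times higher. RNA of Y-linked genes was alike in the 2 libraries, with Uty at 203 CPM in the KO and 207 CPM in WT E18.5, and Xist at 1267 and 1261 CPM. Without the ribosomal region, chromosome Y and unplaced scaffolds, 46.6% of the set was at least 2 times higher in E18.5 myonuclei, and the median log2 KO over WT ratio in myonuclei was 0.44.

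RNA of the nearest genes is a readout that the rule did not use. The 4670 peaks had 3579 nearest genes, and 223 of these had at least 3 of the peaks. From E18.5 to P5, 658 of the 2516 genes with enough UMIs in myonuclei (26.2%) were at least 2-fold lower, against 20.5% of genes nearest to any E18.5 peak, and 225 (8.94%) at least 2-fold higher, against 9.05%. To the adult, 1450 of 2463 (58.9%) were at least 2-fold lower against 48.7%, and 211 (8.57%) at least 2-fold higher against 9.77%. The median log2 change to P5 was -0.36, beside -0.32 for genes nearest to any peak, and to the adult it was -1.48 against -0.94.

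All gene rows shifted, with a median of -0.34 to P5 and -0.97 to the adult. Relative to the median gene the nearest genes stood at -0.02 at P5 and -0.51 in the adult. The difference from the background was larger for genes of the peaks higher in myonuclei: 29.9% of these were at least 2-fold lower at P5 against 20.6% for the genes of all E18.5 peaks higher in myonuclei. It was also larger close to the start, with 32.4% lower at P5 within 1 kb (background 19.5%), 31.1% from 1 to 10 kb (20.5%), 22.9% from 10 to 50 kb (18.8%) and 23.6% beyond 50 kb (19%). Genes with 3 or more prenatal-only peaks had an adult median of -2.57 against -1.40 for genes with 1, but they also had more E18.5 peaks in all (median 15.0 against 5.00). In others the P5 median was -0.08 against -0.11.

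In the KO, 316 of 2574 nearest genes (12.3%) had at least 2-fold more RNA in myonuclei than in WT E18.5 (background 8.54%) and 154 (5.98%) at least 2-fold less (background 6.49%), with a median log2 of 0.11. Where the peak was at least 2 times higher in the KO the median RNA ratio of its gene was 0.33, and 0.12 in each of the lower ranges. For peaks of all 5 libraries it was 0.28 where the peak was at least 2 times higher in the KO and -0.08 where it was at most 0.5 times as high. By stage, genes of peaks at most 0.5 times as high at E18.5 as at E14.5 had a median RNA log2 ratio of -0.38, those in between 0.02, and those at least 2 times higher 0.32. The same medians for peaks of all 5 libraries were -0.43, 0.17 and 0.66. Mesenchymal marker RNA in myonuclear sums was 1716 CPM at E18.5, 1900 CPM at P5 and 33.2 CPM in the adult, and stem cell and myoblast marker RNA was 239, 82.5 and 19.6 CPM. The part of either list in the RNA differences after birth was not tested.

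Named genes showed how far their RNA went. Myh3 RNA in myonuclei was 1399, 997, 93.2 and 0.152 CPM (3 UMIs) in the WT libraries from E14.5 to adult, with 899 CPM in the KO. It was 10.7 times (10.1 to 11.4) higher at E18.5 than at P5. Tnnt2 RNA ran 207, 168, 8.88 and 0.152 CPM over the same stages, with 263 CPM in the KO, and was 18.9 times (15.6 to 23.1) higher at E18.5 than at P5. Myl4 RNA went from 288 CPM at E18.5 to 39.5 CPM at P5 and 2.18 CPM in the adult, and Tnni1 RNA from 253 to 36.2 and 1.97 CPM. These 4 sarcomere genes had less RNA at P5 than at E18.5, and less again in the adult. Of the 7 listed sarcomere genes with a prenatal-only peak, 5 were at least 2-fold lower at P5 and 6 in the adult. Of genes nearest to any E18.5 peak, 20.5% and 48.7% were. The list was chosen with earlier results known, so these counts are not independent evidence. Myl1 RNA instead went from 3795 to 4624 CPM at P5, and Actn2 RNA from 1460 to 1653 CPM.

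Mymk RNA was 60.6, 40.4 and 3.71 CPM at E14.5, E18.5 and P5 and absent from the adult counts (0 UMIs), which makes E18.5 at least 266-fold higher against a floor of 3 UMIs. Its KO level was 63.8 CPM, 1.58 times (1.41 to 1.77) WT E18.5. Mymx RNA followed at 8.62, 5.35, 0.565 and 0 CPM, with 14.4 CPM in the KO. Both fusion genes had more RNA in the KO than in WT E18.5. Their peaks were also higher there, but the rule required a KO call, so this match is not separate evidence. At Myh3 the peak read higher in the KO while the RNA read lower. Cdh15 RNA was 84.6 CPM at E18.5 and 15.0 CPM at P5, with 73.7 CPM in the KO, where its peak was higher than in WT E18.5.

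Chrng RNA stood at 72.0, 84.5, 5.41 and 0.0506 CPM (1 UMI in the adult) over the 4 WT stages and at 141 CPM in the KO, 1.67 times (1.54 to 1.81) WT E18.5. Col25a1 RNA ran 1217, 532, 165 and 3.04 CPM, with 2740 CPM in the KO, 5.15 times (5.02 to 5.29) the WT level. Myog RNA went from 50.2 to 10.3 and 1.27 CPM, Tead4 RNA from 203 to 56.4 and 9.82 CPM, and Klf5 RNA from 162 to 31.6 and 4.15 CPM between E18.5, P5 and adult. All 3 factors were lower at P5 and lower again in the adult. In the KO, Tead4 RNA was 1.00 times (0.948 to 1.06) that of WT E18.5, Myog RNA 1.11 times (0.989 to 1.24) and Klf5 RNA 1.31 times (1.24 to 1.40).

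Of the 7 imprinted genes with a prenatal-only peak, 3 were at least 2-fold lower in RNA at P5 and all 7 in the adult. The shares over genes nearest to any E18.5 peak were 20.5% and 48.7%. Rian RNA was 15913 CPM at E18.5 and 15782 CPM at P5, and 62.3 CPM in the adult. Dlk1 RNA was 1384, 591 and 0.0506 CPM, and Igf2 RNA 595, 319 and 1.27 CPM, at E18.5, P5 and adult. Gnas RNA was 2268, 662 and 169 CPM, and Cdkn1c RNA 69.3, 24.8 and 0.861 CPM. The E18.5 level of Rian was 1.01 times (1.00 to 1.01) that of P5, where its peak had no call.

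Other nearest genes had more RNA after birth. Atp2a1 RNA was 159, 936, 1811 and 2484 CPM over the 4 WT stages, and 521 CPM in the KO. Sox6, a factor of fast fibre identity, had 4 prenatal-only peaks, yet its RNA went from 1412 CPM at E18.5 to 2890 at P5 and 5930 in the adult. Nctc1, a noncoding RNA, was 330 times (243 to 460) higher in the adult (1082 against 3.28 CPM). A prenatal-only peak thus lay near genes with more RNA after birth as well as genes with less. Dscaml1 RNA, like its peak, was already low at E18.5, with 154 CPM at E14.5 and 0.559 CPM at E18.5 (276 times, 134 to 688). Tmem108 RNA likewise went from 1019 to 96.3 CPM and Fstl4 RNA from 266 to 9.27 CPM before birth, and to 6.94 and 2.34 CPM at P5.

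**Figure D4:**
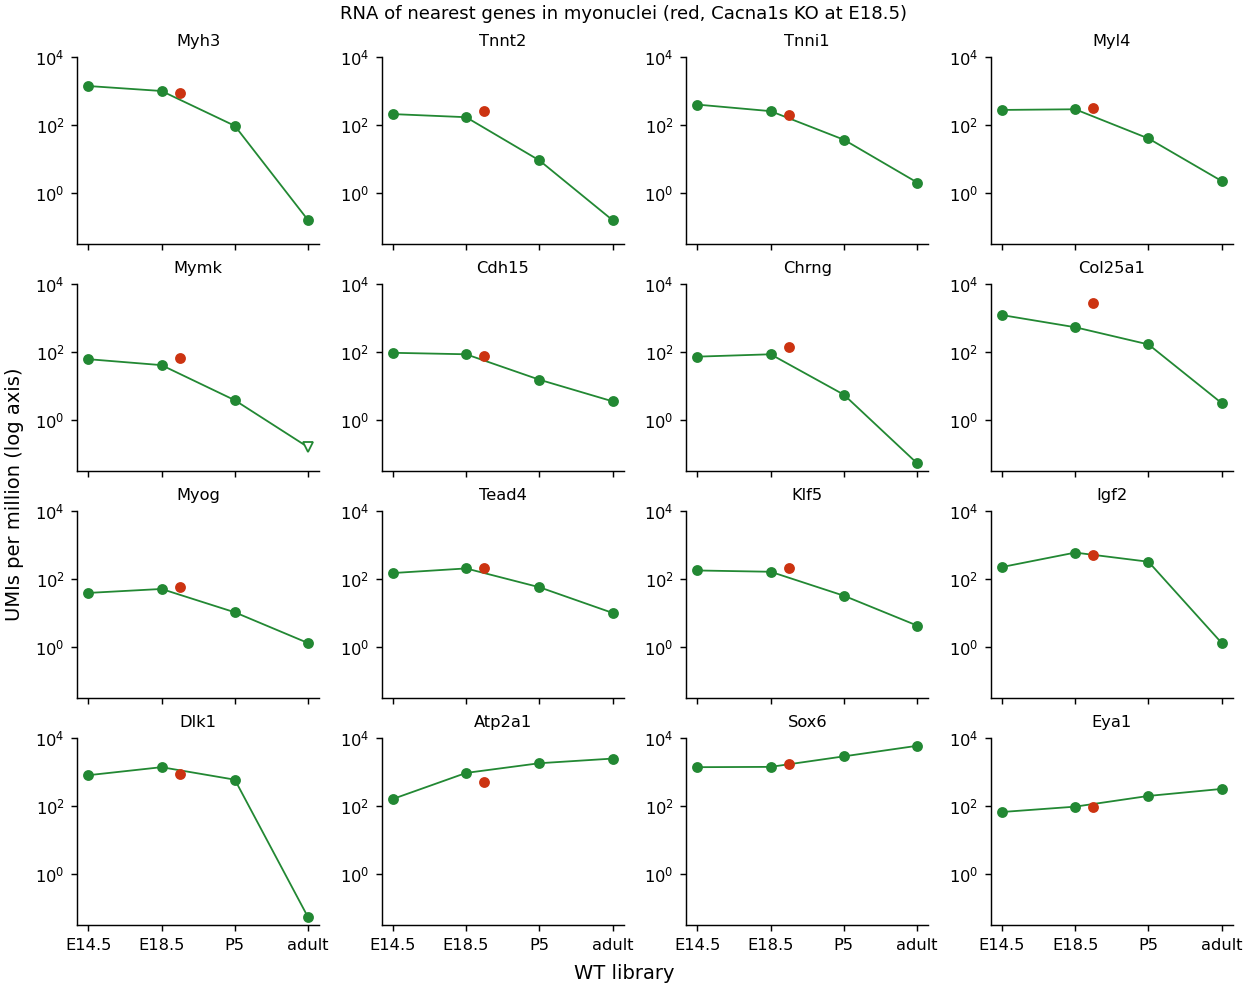
RNA in myonuclei, in CPM on a common log axis (y axes), of 16 genes nearest to prenatal-only peaks, over the 4 WT libraries (x axis, green line), with the Cacna1s KO at E18.5 as a red point. Single libraries have no error bars, and an open triangle marks 0 UMIs drawn at the floor of 3. Myh3 stands at 997 CPM at E18.5 and 0.152 CPM in the adult, and Atp2a1, Sox6 and Eya1 are highest in the adult.

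Sequence was compared in the central 300 bases, available for 4668 prenatal-only peaks and 91231 E18.5 peaks. The E-box CAGCTG, the letters favoured by the MyoD family, was present in 2766 windows (59.3%), beside 32.0% of all E18.5 peaks and 28.0% of peaks of all 5 libraries. Any CANNTG, which includes CAGCTG, was found in 92.4% against 81.9%. Among the other E-box kinds CAGGTG was found in 24.8% against 19.3%, CAGATG in 32.8% against 26.4% and CACGTG in 5.96% against 6.08%. The TEAD motif GGAATG was found in 27.9% against 19.7%, the RUNX motif TGTGGT in 23.4% against 19.5% and the SOX motif ACAAAG in 22.5% against 19%. All motifs were searched on both strands.

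Peaks higher in myonuclei and away from promoters share a cell class and a place, and were compared within that group. There CAGCTG was in 70.0% of 2048 prenatal-only peaks, 53.1% of all 14840 such E18.5 peaks, 57.7% of those of all 5 libraries and 72.6% of the 1001 also called at P5 but not in the adult. GGAATG was in 32.3%, 25.7%, 24.7% and 31.7%. Both motifs together were in 20.6%, 13.3%, 13.7% and 21%. In both motifs the prenatal-only peaks lay closer to the peaks called until P5 than to the peaks of all 5 libraries. Of distal peaks higher in others, CAGCTG was in 31.7% against 26.0%.

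Several motifs were less frequent in distal prenatal-only peaks higher in myonuclei than in the corresponding peaks of all 5 libraries: NFI (TTGGC) 48.6% against 59.4%, nuclear receptor (AGGTCA) 15.4% against 25.9% and MEF2 (by name) 7.67% against 13.3%. All such E18.5 peaks had 56.8%, 22.6% and 10.8%. Those also called at P5 but not in the adult had 52.5%, 17.1% and 7.99%. The lower values were thus not particular to the prenatal-only peaks. Over all prenatal-only peaks, CTCF (by name) was found in 2.19% against 6.69% of E18.5 peaks, ETS (CCGGAA) in 4.24% against 8.21%, AP-1 (TGANTCA) in 9.98% against 12.5% and KLF (GGGNGGGG) in 20.3% against 23.7%. Among distal peaks alone these were 2.15% against 6.44% for CTCF, 3.92% against 4.73% for ETS, 10.4% against 14.4% for AP-1 and 18.7% against 17.7% for KLF, so the KLF order turned. Among distal peaks higher in myonuclei they were 1.46% against 2.02%, 2.83% against 3.68%, 12.1% against 13.9% and 15.9% in both sets.

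Of the distal prenatal-only peaks higher in myonuclei, the 1433 with CAGCTG had a median log2 E18.5 over E14.5 ratio of -0.87 and the 615 without it -0.76, and the KO over WT medians were 0.51 and 0.49. Of the windows printed earlier, the 4 without CAGCTG, near Myog, Mymk and Chrng and at the Myh3 promoter, had KO to WT ratios of 1.19 to 2.14, and the 4 with 3 copies 1.33 to 2.24.

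**Figure D5:**
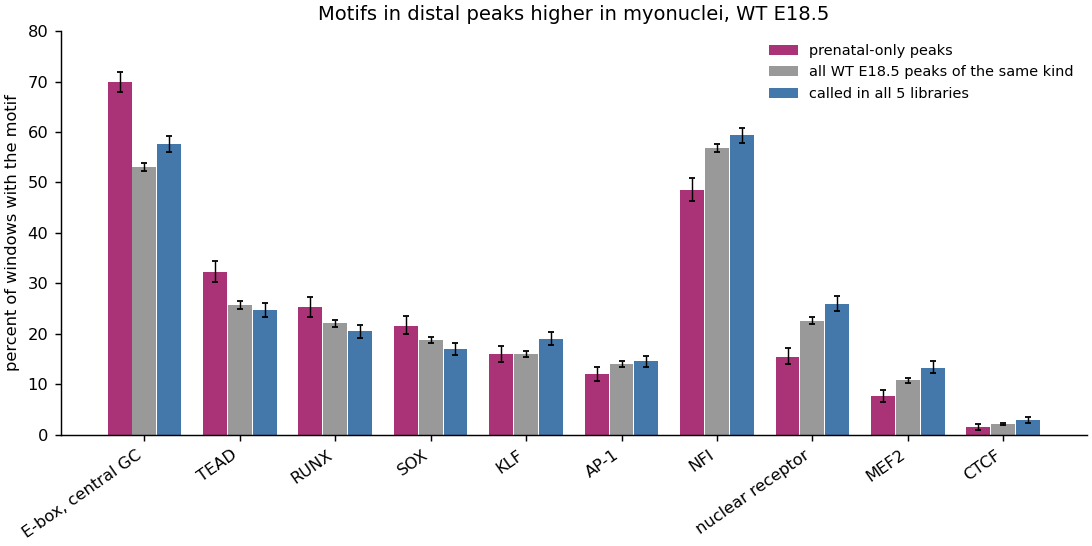
Percent of 300-base windows with each motif (y axis, bars from 0, with 95% intervals) in distal peaks higher in myonuclei at WT E18.5 (motifs on the x axis), for prenatal-only peaks, all E18.5 peaks of the same kind and those called in all 5 libraries. The GC-centred E-box bar of the prenatal-only peaks reaches 70.0% against 57.7% in peaks of all 5 libraries, and their NFI bar is lower, 48.6% against 59.4%.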

How the data were processed

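RNA and ATAC of the same nuclei were measured in 5 libraries of mouse hindlimb muscle, 1 per group. Per the labels and the submitters' processing notes, the authors ran Cell Ranger ARC 2.0.0 on mm10. The deposited matrices hold whole-number counts, UMIs per gene and Tn5 cut counts per peak, with peaks called in each library alone. Peak coordinates were matched to GRCm38, and gene starts came from GENCODE M21, where 50 of the 32285 gene rows had no match.

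A nucleus was kept if its UMIs numbered 400 to 25000, no more than 10% of them mitochondrial, and its ATAC counts did not exceed 70000; no doublet caller was run. In each library 0.294% to 6.36% of kept nuclei lay near the 1.5% cut (1.2% to 1.8%). Counts were summed by library and class and scaled to CPM over all peaks or genes. Log2 ATAC ratios used a pseudocount of 0.5 counts and required 20 ATAC counts. Log2 RNA ratios required 10 UMIs and had no pseudocount, with an empty sum set to 3 UMIs. Single ratios with an interval had no pseudocount. A 2-fold ratio was called, with no test. Stem cell, mesenchymal and endothelial names needed 3 UMIs in a marker list and 2 times the next list. Named regions were the 12 highest per class, the 8 most extreme ratios and members of gene lists. The regions and lists were chosen with earlier results of these data known. The interval calculation was tested on simulated data. Python 3.11.15, numpy 2.4.6, pandas 2.3.3 and scipy 1.17.1 were used. Alternatives changed the overlap rule, marker cut, filter, scaling and gene placement.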

Additional observations from a re-analysis of the deposited data

How the results depend on the processing

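Of 104 alternative values for 11 results, 77 stayed within the interval of the reported value, 26 lay outside it and 1 had the opposite sign. These intervals treat peaks or genes as independent and are not the counting intervals above. For the number of peaks the range was set at 3113 to 7005. The tally is therefore a yardstick for the size of a move and does not measure reproducibility. Of 95 values, 93 lay on the same side of the value over all peaks or genes. A myonuclear cut of 1% gave 50.1% of peaks higher in myonuclei and a median log2 class ratio of 1.00. A cut of 3% gave 30.5%, 12.7% higher in others, a median of 0.52, an E18.5 over E14.5 median of -0.83 and an adult RNA median of -1.23. Counting only nuclei under 0.5% as others gave 52.2% and 1.08. Without a filter on nuclei the values were 41.1%, 8.29%, 0.74, -0.80 and a KO over WT median of 0.48, and scaling to peaks of all 5 libraries gave 0.34. With at least 200 counts per peak, 1551 regions remained, with 48.0% higher in myonuclei, 13.5% promoters and 61.7% with CAGCTG. Promoters were 8.09% without a postnatal peak within 1000 bases and 15.6% by the row interval, the latter chosen after seeing the data. RNA medians relative to the median gene were -0.02 at P5, -0.51 in the adult and 0.03 at P5 in others, which turned the sign. With at least 100 UMIs they were -0.29 and -1.08, and genes of peaks higher in myonuclei gave -0.44 at P5, an alternative added after seeing the data. The causes were not tested. No paired analysis was possible because each group was 1 library and no test was run. The set had a median of 162 counts at E18.5, and the effect of library depth on its weak peaks was not tested.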
